A study of Mus musculus with 13 samples.

Results

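Matrix metalloproteinases and their tissue inhibitors are described here in sciatic nerve of diabetic db/db and control db/+ mice. The genes were taken by name: 7 metalloproteinases (Mmp2, Mmp3, Mmp8, Mmp9, Mmp12, Mmp13 and Mmp14) and 3 inhibitors (Timp1, Timp2 and Timp3). All 10 were measured, with 1 probe set each, among 15437 genes. Both groups were of the BKS strain and were sampled at an age of 24 weeks. The db/db group (n = 6; samples 110, 111, 112, 409, 410 and 411) is homozygous for the db mutation of the leptin receptor gene Lepr, which makes mice obese and diabetic. The db/+ group (n = 7; samples 101, 103, 104, 105, 106, 404 and 407) is heterozygous, so it also carries 1 db allele, and serves as the nondiabetic control. Each sample was hybridised to 1 array, and the values are log2 expression levels.

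Matrix metalloproteinases are zinc enzymes that cut collagens, laminins, elastin and other proteins of the extracellular matrix. Most are secreted as inactive proenzymes that are activated by other proteases, among them plasmin and membrane-bound Mmp14, and they are held in check by the tissue inhibitors (Timp proteins), which block the active site. In peripheral nerve they are best known from injury, where Schwann cells, fibroblasts, endothelial cells and invading macrophages and neutrophils release them, and where they open the blood-nerve barrier and cut myelin proteins.

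Several of these genes lie side by side in the genome, in a cluster. Its measured genes rose in db/db nerve or did not pass the test, where 11.7% of all genes fell. Its start regions are shown for that reason, so they were picked from the outcome in these data. In the RefSeq gene table (GRCm38.p6), 10 of 27 Mmp and Timp genes lie together on chromosome 9, in the order Mmp13, Mmp12, Mmp1b, Mmp3, Mmp1a, Mmp10, Mmp8, Mmp27, Mmp20 and Mmp7. Of these, 6 were measured, and 4 of them (Mmp13, Mmp12, Mmp10 and Mmp8) were higher in db/db nerve, against 13.4% of all genes. Mmp13, Mmp10 and Mmp8 were dim, below the lower quartile of all genes on 11, 12 and 8 of the 13 arrays. Without db/+ 101, 103, 104 and 106, whose neuronal transcripts were high, Mmp12 alone of these 4 passed, joined by Mmp8 once the fit blocked on the sample number series. In that blocked fit db/+ 105 was the only control of its series. The lines below give the 150 bases before the annotated start of each measured gene of the cluster, 5′ to 3′ on the plus strand of chromosome 9, from RefSeq (GRCm38.p6). Capitals mark matches to TGANTCA, the binding motif of the AP-1 transcription factors (Fos and Jun proteins), which reads the same on both strands. For Mmp12 and Mmp7, which have 2 annotated starts, the one with the motif is given.
Mmp13, chr9:7272364-7272513: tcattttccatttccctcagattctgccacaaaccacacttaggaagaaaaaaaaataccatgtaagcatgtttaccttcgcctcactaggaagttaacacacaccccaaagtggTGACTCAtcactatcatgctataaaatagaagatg
Mmp12, chr9:7347224-7347373: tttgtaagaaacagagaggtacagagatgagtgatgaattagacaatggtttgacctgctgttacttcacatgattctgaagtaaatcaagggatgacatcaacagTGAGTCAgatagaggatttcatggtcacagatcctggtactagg
Mmp3, chr9:7445672-7445821: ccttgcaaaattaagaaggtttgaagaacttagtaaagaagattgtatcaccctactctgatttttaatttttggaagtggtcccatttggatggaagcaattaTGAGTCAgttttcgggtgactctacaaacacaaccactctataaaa
Mmp10, chr9:7502192-7502341: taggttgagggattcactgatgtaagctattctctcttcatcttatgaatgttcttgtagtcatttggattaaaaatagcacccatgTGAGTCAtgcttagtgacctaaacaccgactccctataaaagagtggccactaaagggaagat
Mmp8, chr9:7558279-7558428: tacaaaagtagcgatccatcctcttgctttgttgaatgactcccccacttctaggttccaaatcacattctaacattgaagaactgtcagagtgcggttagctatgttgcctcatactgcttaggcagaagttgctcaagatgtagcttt
Mmp7, chr9:7691940-7692089: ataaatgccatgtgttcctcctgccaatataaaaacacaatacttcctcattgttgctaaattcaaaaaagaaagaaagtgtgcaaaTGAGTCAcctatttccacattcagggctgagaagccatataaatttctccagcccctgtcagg

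The motif began 35 bases before the start in Mmp13, 44 in Mmp12, 46 in Mmp3 and 63 in Mmp10 and Mmp7, and the RefSeq window of Mmp8 did not contain these letters. RefSeq windows from 250 bases before to 50 bases after the start were found for 8 of the 10 listed genes, in 9 windows, and for Mmp2 and Mmp9 none was used here. TGANTCA occurred in 3 of those 9 windows, against 7.81% of 32851 windows of all genes. The TATA box letters TATAAA, on either strand, occurred in 4 of the 9 (13.6% of all windows), and the Ets-type letters AGGAAG in 7 of the 9 (35.4%). TATAAA began 16 bases before the start in Mmp13, 7 in Mmp3 and 3 in Mmp8 (as TTTATA), and 4 bases after it in Mmp12. In the cluster genes outside the listed 10, it began 29 bases before the start in Mmp10 and 123 and 26 in Mmp7. Whether any of these serves as a TATA box was not tested. Among the motif holders, Mmp13, Mmp12 and Mmp10 rose in db/db nerve, whereas Mmp3 and Mmp7 did not pass the test. Mmp8, whose window lacked the motif, rose as well. Mmp12 and Mmp7 held the motif at the start shown, but not at their other annotated start. Whether the motif has a part in these rises was not tested.

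The db/+ arrays were not alike, which bears on every comparison. The mean of 14 neuronal markers was 11.30 to 12.11 in db/+ 101, 103, 104 and 106, against 7.49 to 8.47 in db/+ 105, 404 and 407, and it was 6.70 to 7.34 in db/db. These 4 db/+ arrays are therefore also shown apart, and each call of a listed gene is given with and without them. Counts of called cell type markers are from all 13 arrays. The mean of 11 Schwann cell markers was 8.86 to 10.06 in db/db and 9.63 to 10.78 in db/+, that of 10 adipocyte markers 12.92 to 13.04 and 11.71 to 12.68, and that of 10 skeletal muscle markers 6.67 to 11.90 and 7.19 to 12.09. Array medians lay between 8.63 and 8.71. RNA quality was read from the actin 3' minus 5' probe difference, which lay between 0.48 and 0.92 in db/db, 0.96 to 1.40 in the 4 db/+ arrays and 0.40 to 1.14 in the other 3. Lepr was 6.30 ± 0.28 (SD, n = 6) in db/db and 7.72 ± 0.79 (SD, n = 7) in db/+, with no overlap, and where its probe set lies relative to the db mutation was not checked. The labels do not say that each sample came from a separate animal, so the p-values measure the spread between these samples. In whole nerve, fewer cells of a type and less RNA per cell cannot be told apart.

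Of the 10 listed genes, 6 passed the test between genotypes, 3 in each direction. Mmp12, Mmp8 and Mmp13 rose, and Mmp9, Timp2 and Timp3 fell. Mmp2, Mmp3, Mmp14 and Timp1 did not pass. The test was limma over all 15437 genes with Benjamini-Hochberg adjustment and a threshold of 0.05, and it called 25.1% of all genes, 13.4% higher and 11.7% lower. The median log2 fold change of the 10 was 0.23, against 0.02 over all genes. The groups did not overlap for Mmp12 and Timp2, 2 of the 10, against 9.68% of all genes. Without db/+ 101, 103, 104 and 106, 5 of the 10 passed (12.9% of all genes): Mmp12 higher and Mmp9, Timp2, Timp3 and Mmp2 lower. When the fit of the same arrays blocked on the sample number series (101 to 112 and 404 to 411), Mmp8 passed as well, making 6 of the 10 (19.3% of all genes). Among arrays 101 to 112 this fit had db/+ 105 as its only control.

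**Figure D1:**
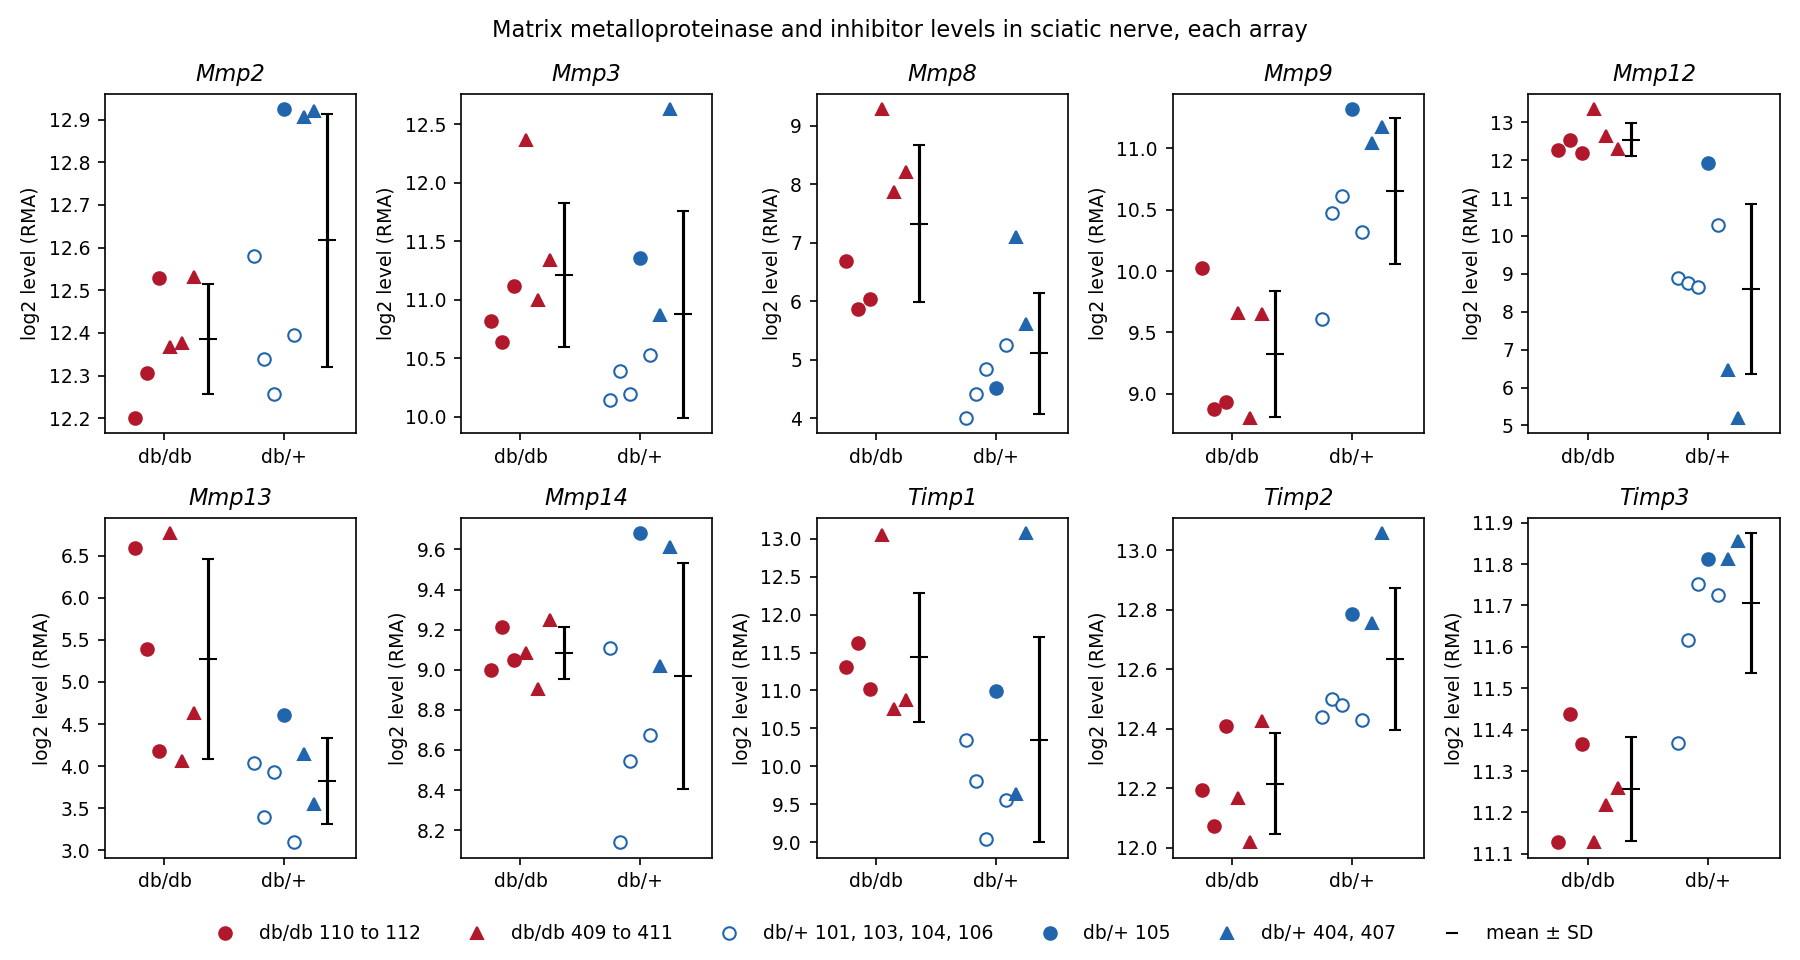
Log2 expression level (vertical axis) of the 10 genes on each array, with db/db left and db/+ right in each panel; vertical scales differ between panels and do not start at 0. Circles are arrays 101 to 112, triangles arrays 404 to 411, open circles db/+ 101, 103, 104 and 106, and bars the mean ± SD (n = 6 db/db, n = 7 db/+). Mmp12 lay above 12 on every db/db array, whereas db/+ arrays spread from 5.20 to 11.92.

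Mmp12, the macrophage elastase, had the greatest rise of the 10. Its level was 12.26, 12.54, 12.20, 13.35, 12.64 and 12.28 in db/db 110, 111, 112, 409, 410 and 411. Its db/+ levels were 8.90, 8.76, 8.66 and 10.29 in 101, 103, 104 and 106, and 11.92, 6.46 and 5.20 in 105, 404 and 407. The db/db arrays were close together and all above every db/+ array, while the db/+ arrays spread over 6.71 on the log2 scale, with 404 and 407 the lowest and 105 the highest. The mean was 12.55 ± 0.43 in db/db (SD, n = 6) and 8.60 ± 2.24 in db/+ (SD, n = 7), a rise of 3.95 ± 0.85 (SE) on the log2 scale, or 15.4-fold (limma, Benjamini-Hochberg adjusted p = 0.00554). The rise was 4.69 without the 4 db/+ arrays (adjusted p = 0.0313).

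Markers of lipid-associated macrophages, which take up lipid in fat tissue and injured nerve, were higher on the same arrays. Of 6 measured markers, 5 rose (Trem2, Gpnmb, Lgals3, Itgax and Atp6v0d2), against 13.4% of all genes. The mean of the 6 was 11.81 to 12.48 in db/db and 9.73 to 11.06 in db/+, with db/+ 105 the highest of the controls. Of 15 general macrophage markers 4 rose (Adgre1, Cd68, Itgam and Mpeg1) and 0 fell, where 13.4% of all genes rose and 11.7% fell. These 4 of 15 are near the 25.1% called among all genes in either direction. The mean of the 15 was 11.34 to 12.09 in db/db and 11.05 to 12.18 in db/+. The db/+ array with the highest macrophage mean, 407, had the lowest Mmp12. In the lipid-associated mean db/+ 407, at 10.44, stood below only db/+ 105 among the controls. Array 105 had the highest Mmp12 of the controls. The lowest of the 15 markers was Itgam, at 6.05 to 7.21 in db/db and 4.86 to 6.63 in db/+, and the part of macrophage number in the rise of Mmp12 was not tested.

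The 2 collagenases, which cut fibrillar collagen, were dim and rose. Mmp8, the neutrophil collagenase, was 5.87 at lowest, 7.28 at the median and 9.29 at highest in db/db. The db/+ arrays had 4.01 at lowest, 4.84 at the median and 7.11 at highest. The highest control, db/+ 404, lay above the 3 db/db arrays 110 to 112. Mmp8 rose by 2.22 ± 0.60 (SE), or 4.65-fold (limma, Benjamini-Hochberg adjusted p = 0.0186). Without the 4 db/+ arrays the difference was 1.58 and did not pass (adjusted p = 0.241), whereas blocking on the number series gave 1.93, which passed (adjusted p = 0.0153). That blocked fit had db/+ 105 as the only control among arrays 101 to 112.

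Mmp8 also differed between the sample number series. Its mean was 6.20 in db/db 110 to 112 and 8.45 in db/db 409 to 411, and it was 4.61 in db/+ 101 to 106 and 6.36 in db/+ 404 and 407. Arrays 404 to 411 were thus higher in both genotypes, and with the series as a block the rise was 1.79 (limma, Benjamini-Hochberg adjusted p = 0.00191). What the series mark is not stated. The mean of 11 neutrophil markers was 8.23, 6.97 and 7.68 in db/db 110, 111 and 112 and 8.14 to 8.45 in db/db 409 to 411. Among controls it was 6.65 to 7.52 in db/+ 101 to 106 and 8.46 and 8.89 in db/+ 404 and 407, and its part in the levels of Mmp8 was not tested. Of these markers, S100a8 rose and 10 did not pass, where 25.1% of all genes passed. Among the 10 were the granule genes Elane and Mpo, with differences of 0.17 and −0.06. Ngp, Ltf and Camp differed by 1.13, 1.005 and 0.52, and Prtn3 and Ctsg by −0.71 and −0.85. S100a9, Cxcr2 and Csf3r differed by 0.42, 0.41 and 0.35. Elane and Mpo stood at 5.34 to 6.23 and 4.73 to 6.24 in db/db and at 4.66 to 6.52 and 4.66 to 7.55 in db/+.

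Mmp13, collagenase 3, was 6.60, 5.40, 4.18, 6.77, 4.06 and 4.63 in db/db 110, 111, 112, 409, 410 and 411. The db/+ arrays had 3.09 at lowest, 3.92 at the median and 4.61 at highest. Arrays 110, 111 and 409 lay well above the controls, 411 just above the highest control, and 112 and 410 within their range. Mmp13 rose by 1.45 ± 0.45 (SE) on the log2 scale, or 2.73-fold (limma, Benjamini-Hochberg adjusted p = 0.0341). The call was lost without the 4 db/+ arrays (1.17, adjusted p = 0.27) and when any 1 of 6 arrays was left out (db/+ 103, 104 or 106, or db/db 110, 111 or 409; highest adjusted p = 0.0729). Mmp13 stood below the lower quartile of all genes on 11 of 13 arrays and Mmp8 on 8, and the deposited values carry no detection calls.

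The gelatinases, which cut denatured collagen and basement membrane collagen, were Mmp9, which fell, and Mmp2, which did not pass over all arrays. Mmp9, gelatinase B, is released by Schwann cells, macrophages and neutrophils. Its level was 10.02, 8.88, 8.93, 9.66, 8.80 and 9.65 in db/db 110, 111, 112, 409, 410 and 411. Its db/+ levels were 9.61, 10.48, 10.62 and 10.32 in 101, 103, 104 and 106, and 11.32, 11.05 and 11.18 in 105, 404 and 407. The groups overlapped only through db/+ 101, which lay below db/db 110, 409 and 411. Mmp9 fell by 1.33 ± 0.29 (SE) on the log2 scale (limma, Benjamini-Hochberg adjusted p = 0.00568), a level 2.51-fold higher in db/+. Without the 4 db/+ arrays it fell by 1.86 (adjusted p = 0.0036).

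Mmp2, gelatinase A, is made by fibroblasts and Schwann cells and is activated at the cell surface by Mmp14 and Timp2 together. It was an abundant transcript, 12.20 at lowest, 12.37 at the median and 12.53 at highest in db/db. In db/+ it was 12.58, 12.34, 12.26 and 12.39 in 101, 103, 104 and 106, and 12.92, 12.90 and 12.92 in 105, 404 and 407. The first 4 lay near the db/db range and the other 3 above it. Over all arrays the difference was −0.23 ± 0.13 (SE) on the log2 scale, with a 95% interval of −0.52 to 0.05 (limma, Benjamini-Hochberg adjusted p = 0.213). Without the 4 db/+ arrays Mmp2 fell by 0.53 and passed (adjusted p = 0.00969). In the fibroblast list 5 of 11 markers fell (Dcn, Pi16, Clec3b, Cd34 and Sfrp2) and 0 rose, where 11.7% of all genes fell and 13.4% rose. The mean of the 11 was 12.17 to 12.54 in db/db, 12.49 to 12.72 in the 4 db/+ arrays and 12.91 to 13.02 in the other 3. The lowest of these markers was Pdgfra, at 9.40 to 9.89 in db/db and 9.42 to 10.33 in db/+, and the part of fibroblast number in these differences was not tested.

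Mmp3, stromelysin 1, and Mmp14, the membrane-bound activator, showed no call. Mmp3 was 10.64 at lowest, 11.06 at the median and 12.37 at highest in db/db, and 10.14, 10.53 and 12.63 in db/+. The difference was 0.34 over all arrays, with a 95% interval of −0.51 to 1.19 (limma, Benjamini-Hochberg adjusted p = 0.561), and −0.41 without the 4 db/+ arrays (adjusted p = 0.597). Mmp14 was 8.90 at lowest, 9.06 at the median and 9.25 at highest in db/db, and 8.14, 9.02 and 9.68 in db/+. The difference was 0.11, with a 95% interval of −0.37 to 0.59 (adjusted p = 0.743), and −0.35 without the 4 (adjusted p = 0.169). The sign of both differences thus turned with the choice of control arrays.

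Among the inhibitors, Timp3 and Timp2 fell by small amounts. Timp3 binds to the matrix and also blocks Adam17, the protease that releases tumour necrosis factor. It was 11.13, 11.44, 11.36, 11.13, 11.22 and 11.26 in db/db 110, 111, 112, 409, 410 and 411. In db/+ it was 11.37, 11.62, 11.75 and 11.72 in 101, 103, 104 and 106, and 11.81, 11.81 and 11.86 in 105, 404 and 407. The groups overlapped only through db/+ 101, which lay below db/db 111. Timp3 fell by 0.45 ± 0.09 (SE) on the log2 scale, and the level was 1.37-fold higher in db/+ (limma, Benjamini-Hochberg adjusted p = 0.0045). Without the 4 db/+ arrays it fell by 0.57 (adjusted p = 0.00684).

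Timp2, which inhibits Mmp2 and at low levels helps Mmp14 to activate it, was 12.02 at lowest, 12.18 at the median and 12.43 at highest in db/db. The db/+ values were 12.43, 12.50 and 13.06. The groups did not overlap, but the highest db/db array and the lowest db/+ array met at 12.43. Timp2 fell by 0.42 ± 0.12 (SE) on the log2 scale (limma, Benjamini-Hochberg adjusted p = 0.0228), and by 0.65 without the 4 db/+ arrays (adjusted p = 0.0111). Without db/db 410 the call was lost (adjusted p = 0.0522).

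Timp1, a soluble inhibitor induced in injured nerve and by inflammation, varied most among the inhibitors. It was 11.31, 11.62, 11.01, 13.05, 10.76 and 10.87 in db/db 110, 111, 112, 409, 410 and 411. In db/+ it was 10.34, 9.81, 9.04 and 9.56 in 101, 103, 104 and 106, and 10.999, 9.63 and 13.07 in 105, 404 and 407. One array of each genotype, db/db 409 and db/+ 407, stood near 13, and the same 2 arrays had the highest Mmp3 (12.37 and 12.63). Their means of the macrophage markers were also the highest (12.09 and 12.18), while db/db 110, at 12.02, had a Timp1 of 11.31 and an Mmp3 of 10.82. Within its genotype each was also highest in the means of the neutrophil markers (8.45 and 8.89) and of 8 mast cell markers (9.87 and 10.68). The part of these cell types in the Timp1 and Mmp3 levels was not tested. The difference in Timp1 was 1.09 ± 0.59 (SE) on the log2 scale, with a 95% interval of −0.18 to 2.35 (limma, Benjamini-Hochberg adjusted p = 0.192). Without db/+ 407 Timp1 rose by 1.54 (adjusted p = 0.0149), and without the 4 db/+ arrays, where 407 is 1 of 3 controls, the difference was 0.20 (adjusted p = 0.888).

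**Figure D2:**
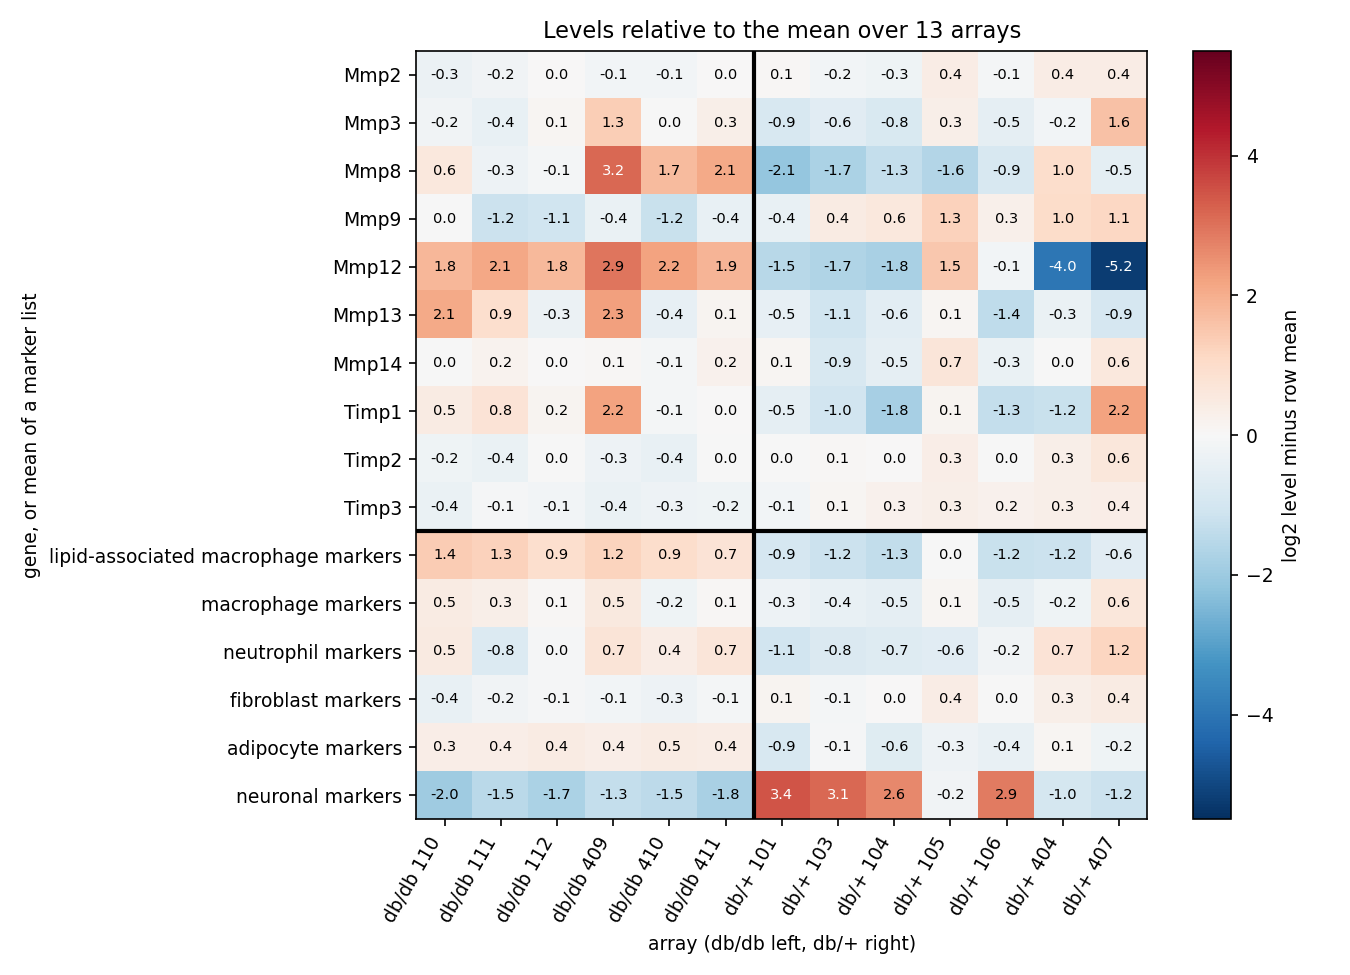
Level of each of the 10 genes (upper rows) and mean level of 6 marker lists (lower rows) on each array, as log2 difference from the row's mean over the 13 arrays; db/db arrays stand left and db/+ arrays right of the vertical line. Mmp12 and the lipid-associated macrophage markers are red on all 6 db/db arrays, and neuronal markers are high on db/+ 101, 103, 104 and 106.

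Among the rest of the family, 9 of 17 other genes were measured (Timp4 and 8 metalloproteinases). Of these, Timp4, Mmp19 and Mmp10 rose and 0 fell, where 13.4% of all genes rose and 11.7% fell. These 3 of 9 are near the 25.1% called among all genes. Without the 4 db/+ arrays 2 of the 9 passed, 1 in each direction (12.9% of all genes). Timp4, an inhibitor known from heart and fat tissue, was 12.39 at lowest, 12.52 at the median and 12.83 at highest in db/db, and 10.11, 10.61 and 12.14 in db/+. The groups did not overlap, and Timp4 rose by 1.66 ± 0.29 (SE) on the log2 scale, or 3.16-fold (limma, Benjamini-Hochberg adjusted p = 0.00164), and by 1.25 without the 4 db/+ arrays (adjusted p = 0.0229). Of 10 adipocyte markers 7 rose and 0 fell, against 13.4% and 11.7% of all genes. The groups did not overlap in the mean of the 10, given above. The lowest control in that list, db/+ 101, had a Timp4 of 10.16, and the highest, db/+ 404, had 12.14, the highest Timp4 of the controls. The part of adipocyte content in the rise of Timp4 was not tested.

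Mmp19 was 8.05 ± 0.46 (SD, n = 6) in db/db and 6.999 ± 0.47 (SD, n = 7) in db/+, a rise of 1.05 ± 0.24 (SE) on the log2 scale (limma, Benjamini-Hochberg adjusted p = 0.0075). It missed the threshold without the 4 db/+ arrays (0.60, adjusted p = 0.164). Mmp10, stromelysin 2, was 6.62, 4.74, 4.03, 5.16, 3.98 and 4.55 in db/db 110, 111, 112, 409, 410 and 411, and 3.57 to 4.07 in db/+. It rose by 1.07 ± 0.35 (SE) on the log2 scale (adjusted p = 0.0393), with db/db 110 the highest. That call was lost without the 4 db/+ arrays (0.98, adjusted p = 0.246) and when any 1 of 9 arrays was left out. Mmp10 stood below the lower quartile of all genes on 12 of 13 arrays. Mmp7, Mmp11, Mmp16, Mmp17, Mmp23 and Mmp24 did not pass, with differences from −0.54 (Mmp17) to 0.35 (Mmp11). Without the 4 arrays Mmp23, a membrane-bound metalloproteinase, fell by 0.70 (adjusted p = 0.0314).

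**Figure D3:**
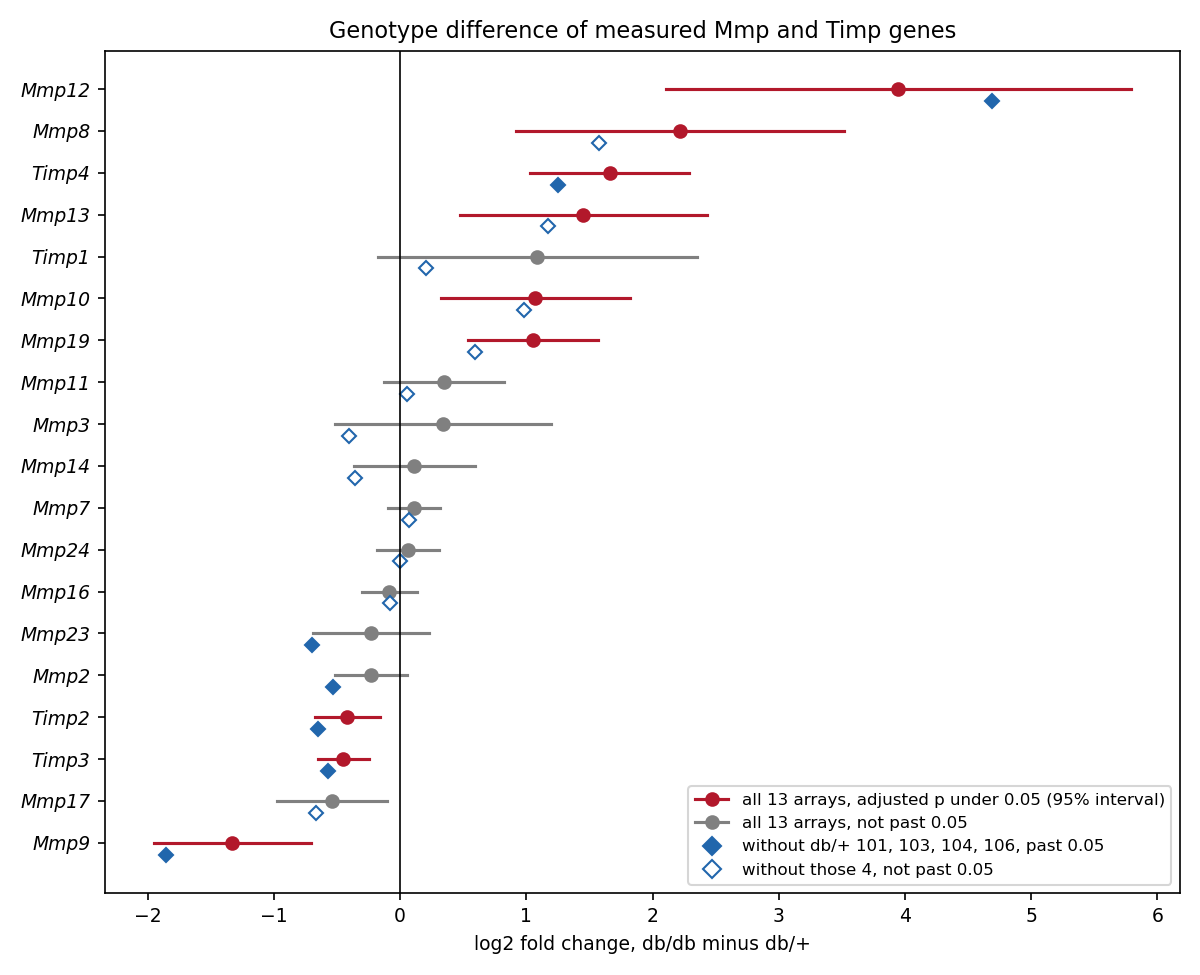
Log2 fold change, db/db minus db/+ (horizontal axis), of the 19 measured Mmp and Timp genes. Circles with lines are estimates with 95% intervals from all 13 arrays, red where the adjusted p passed 0.05, and diamonds are estimates without db/+ 101, 103, 104 and 106, filled where they passed. Mmp12 is at 3.95 and Mmp9 at −1.33 over all arrays, and both diamonds are filled.

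Within each number series the directions of the 6 called genes were the same. In arrays 101 to 112 (3 db/db and 5 db/+) 2 of the 10 passed (18.5% of all genes), Mmp12 at 2.63 and Mmp8 at 1.59 (limma, Benjamini-Hochberg adjusted p = 0.043 and 0.0145). Among arrays 404 to 411 (3 db/db and 2 db/+) 3 of the 10 passed (9.1% of all genes): Mmp12 at 6.93, Mmp9 at −1.74 and Timp3 at −0.63 (adjusted p = 0.00614, 0.0326 and 0.0307). The difference between the series in the genotype effect was 4.31 ± 1.08 (SE) for Mmp12, with an unadjusted p of 0.00204 and a limma Benjamini-Hochberg adjusted p of 0.232. After adjustment in limma, 0 genes differed between the series in this effect, while 2360 genes had an unadjusted p under 0.05. All 4 db/+ arrays with high neuronal transcripts belong to arrays 101 to 112, where db/+ 105 is the only other control. Differences between the series were therefore not separated from differences between these controls.

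Genes with array-to-array profiles most like those of the called genes were found by the root mean square difference between log2 profiles, each centred on its mean over the 13 arrays. The closest to Mmp12 were Plppr4 and the coagulation factor VII gene F7, at 1.30 and 1.31. The closest to Mmp8 were Fosl1, an AP-1 subunit, and Depp1 (0.66 and 0.70), and to Mmp13 Havcr2, an immune checkpoint receptor, and Rad51ap1 (0.48 and 0.52). Mmp9 was closest to Pilrb1 and to Slc6a2, the noradrenaline transporter gene (0.40 and 0.41). Timp2 was closest to Axl, a receptor kinase, and Thbd, which encodes thrombomodulin (0.12 and 0.14), and Timp3 to Timm21 and Ltbp1, which encodes a binding protein of latent transforming growth factor (0.09 and 0.09). This distance grows with a gene's own spread, so it is not comparable between members.

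Genes that switch metalloproteinases on or hold them back were counted in further lists. In the plasminogen system, whose product plasmin activates proenzymes, 5 of 9 measured genes rose and 1 fell, with a median of 0.58, where 13.4% of all genes rose and 11.7% fell. Plaur, the receptor of urokinase, rose by 1.45 ± 0.27 (SE) and Plgrkt, a plasminogen receptor, by 0.78 ± 0.12, while Plat, the tissue plasminogen activator, fell by 0.75 ± 0.16 (limma, Benjamini-Hochberg adjusted p = 0.00245, 0.000646 and 0.0056). All 3 passed without the 4 db/+ arrays as well. The other 3 that rose, Serpinb2, Serpinf2 and Tfpi2, named here after their values were seen, encode protease inhibitors, and none of the 3 passed without the 4 arrays.

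Among 16 activators, inhibitors, binding partners and clearance receptors 4 rose and 4 fell, with a median of 0.07, so 8 of 16 passed, against 25.1% of all genes. Thbs1 (thrombospondin 1) rose by 1.01 ± 0.16 (SE) and the hyaluronan receptor Cd44, which can anchor Mmp9, by 0.86 ± 0.18, and A2m (alpha-2-macroglobulin, a broad protease trap) fell by 1.67 ± 0.35 (limma, Benjamini-Hochberg adjusted p = 0.000907, 0.00483 and 0.0045). Of these, Thbs1 passed without the 4 db/+ arrays, whereas Cd44 and A2m did not (adjusted p = 0.0605 and 0.0743). Reck, a membrane inhibitor of several metalloproteinases named here after its value was seen, fell by 0.69 ± 0.16 over all arrays and by 0.99 without the 4 (adjusted p = 0.0093 and 0.00419). Spock1 and Spock3, likewise named afterwards, fell by 3.16 and 3.28, but stood at −0.57 and −0.44 without the 4 arrays with high neuronal transcripts and did not pass there.

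Of 19 ADAM and ADAMTS proteases, relatives of the metalloproteinases, 4 rose and 1 fell, with a median of 0.05. These 5 of 19 are near the 25.1% called among all genes. Adam8, a membrane protease of leukocytes, was 11.62 ± 0.59 (SD, n = 6) in db/db and 8.74 ± 0.87 (SD, n = 7) in db/+, with no overlap, and rose by 2.88 ± 0.39 (SE) on the log2 scale (limma, Benjamini-Hochberg adjusted p = 0.000258). The aggrecan-cutting protease Adamts5 rose by 0.56 and Adamts16 fell by 2.10 (adjusted p = 0.00334 and 0.00168). Without the 4 db/+ arrays Adam8 and Adamts16 passed and Adamts5 did not (adjusted p = 0.0733).

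Of 19 inducing cytokines and transcription factors 5 rose and 3 fell, with a median of 0.21, so 8 of 19 passed, against 25.1% of all genes. The monocyte chemokine Ccl2 rose by 1.81 ± 0.34 (SE), Fosl1 by 1.68 ± 0.34 and the growth factor Tgfb1 by 1.20 ± 0.32 (limma, Benjamini-Hochberg adjusted p = 0.00247, 0.00365 and 0.0169). None of these 3 passed without the 4 db/+ arrays (adjusted p = 0.0547, 0.0968 and 0.291), whereas Ccl2 and Fosl1 passed there when the fit blocked on number series (1.53 and 1.48, adjusted p = 0.0469 and 0.00891). As for Mmp8, db/+ 105 was the only control of its series in that blocked fit. Fosl1 was dim, with means of 6.02 in db/db and 4.34 in db/+, and a filter on mean level left it out. Tgfb1 rose by 1.56 in arrays 101 to 112 and by 0.23 in arrays 404 to 411 (adjusted p = 0.0143 and 0.555). After adjustment the series did not differ in this effect (limma, adjusted p = 0.27). Tgfb1 was 7.42 to 7.82 in the 4 db/+ arrays, which all belong to the first series. It was 8.53, 8.89 and 9.47 in db/+ 105, 404 and 407. Number series and choice of controls were thus not separated here. Of the 6 other AP-1 subunits, named after their values were seen, Fosb fell by 1.38 and Jun by 0.50 (adjusted p = 0.0451 and 0.0229), and both passed without the 4 arrays. The other 4 did not pass, with differences of 0.37 for Fosl2, −0.25 for Fos, −0.14 for Junb and −0.13 for Jund (adjusted p = 0.107, 0.653, 0.775 and 0.2).

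Of 25 matrix substrates 4 rose and 4 fell, with a median of −0.02. These 8 of 25 are near the 25.1% called among all genes. Col4a2, a basement membrane collagen, rose by 0.83 ± 0.11 (SE), Lama2, the laminin chain of the Schwann cell basement membrane, fell by 0.76 ± 0.11, and Col2a1, the cartilage collagen, fell by 1.72 ± 0.24 (limma, Benjamini-Hochberg adjusted p = 0.000203, 0.000572 and 0.000295). The groups did not overlap for any of the 3, and each passed without the 4 db/+ arrays. In the bone and cartilage list 1 of 10 markers rose and 2 fell, which together is near the 25.1% called among all genes. The mean of the 10 was 6.82 to 7.08 in db/db and 6.93 to 7.26 in db/+.

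**Figure D4:**
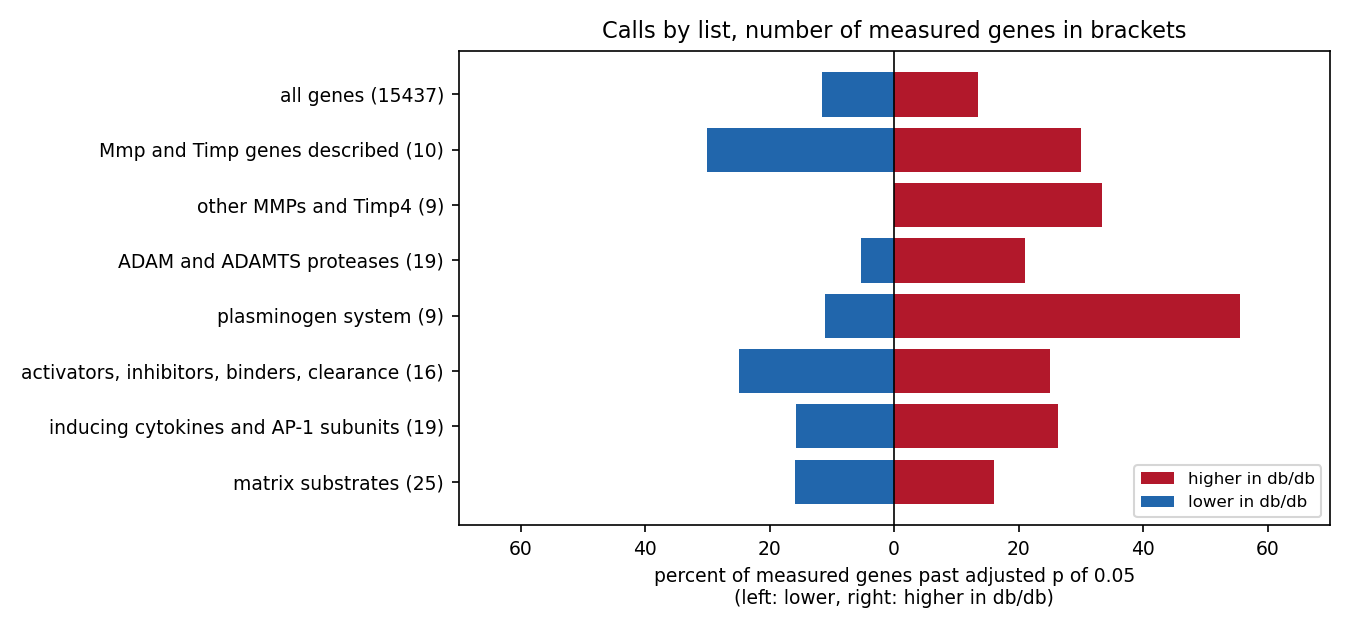
Percent of the measured genes of each list past an adjusted p of 0.05 (limma, all 13 arrays), with genes higher in db/db to the right and genes lower in db/db to the left; the number of measured genes stands in brackets and all 15437 genes are the top bar. The plasminogen system has the longest bar to the right, 5 of 9 genes.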

How the data were processed

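Sciatic nerve RNA from 13 samples was amplified, labelled with biotin and measured on 1-colour arrays, per the labels' protocols. The authors deposited log2 values, which the submitters' processing notes credit to RMA, and these were tested unchanged. The RMA version and probe set file used are not stated in the sources used here. RMA equalises arrays and compresses folds of dim genes. Of 15479 probe sets 42 were controls and stayed out. A platform annotation table gave 1 symbol to 14801 of the remaining 15437, several to 0 and no symbol to 636, and each described gene had 1 probe set.

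Genotype was tested in R 4.3.3 with limma 3.58.1 (lmFit, then eBayes). P-values were two-sided, and Benjamini-Hochberg adjustment covered all 15437 genes. The fit was tested on simulated data. The members, the gene lists (254 entries, 222 measured) and the arrays set apart were chosen with earlier results of these data known. Named genes were all listed members, called genes of the rest of the family, the 3 smallest p-values of each of 5 further lists and the 2 genes nearest in profile to each called member; genes and markers outside this rule were named after their values were seen. Alternatives were other moderation, renewed quantile normalization, median centring, a filter leaving out genes with a mean below the lower quartile, weighting of arrays, each number series alone or both as a block, leaving out each array or 4 db/+ arrays, and an exact permutation test. The number of arrays limits precision. Other calculations used Python 3.11.15 with matplotlib 3.10.9, scipy 1.17.1, numpy 2.4.6 and pandas 2.3.3.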

Additional observations from a re-analysis of the deposited data

Results flagged for a closer look

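In 68 groups (34 named genes in each genotype) 1 array stood far from the rest of its group by Dixon's criterion. Chance gives about 1 in 20 groups, so 1 in 68 is no more than chance gives. Thbs1 was 11.01 in db/db 409, whereas it was 10.52 to 10.65 on the other 5 db/db arrays.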

How the results depend on the processing

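Over all arrays 3867 genes and 6 of the 10 listed genes passed. The count was 6525 genes with array weights, 1404 in arrays 404 to 411 and 1992 without db/+ 101, 103, 104 and 106; the listed genes called were 2 in arrays 101 to 112 and 3 in arrays 404 to 411, which hold fewer samples. Leaving out each array gave 2893 to 4529 genes and 5 to 7 listed genes. The listed genes were tested in 248 alternatives, of which 220 kept direction and side of the threshold, 17 lost and 4 gained a call, and 7 turned the sign of an uncalled difference. Those were Mmp3 (−0.18 in arrays 404 to 411, −0.41 without the 4 db/+ arrays and −0.30 there with the number series as a block) and Mmp14 (−0.24, −0.35 and −0.37 in the same settings, and −0.0252 without db/+ 103, within −0.0252 to 0.23 over the arrays left out). Mmp23 stood at 0.0614 with array weights and Mmp24 at −0.052 in arrays 101 to 112. The causes were not tested. Mmp8, Mmp13 and Mmp10 lie among the dim genes that the filter left out, and Timp1 passed with array weights (1.68, limma adjusted p = 0.0167). Exact permutation of the 13 arrays, two-sided, gave p of 0.00117 to 0.00758 for the 6 called genes and 0.111 to 0.654 for the other 4. No paired analysis was possible because the groups share no sample numbers.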
